A study of Arabidopsis thaliana with 12 samples.

Results

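In RNA-seq of Arabidopsis roots, 56 of the 32678 genes in the count table were selected as consistently higher in *clf* than in wild type libraries, and they are described here. The selection used a rule on the measured values. A gene had at least 60 reads summed over the 6 *clf* libraries, its lowest *clf* level lay above its highest wild type level, and its mean level in *clf* was at least 2 times that in wild type. Of the 19670 genes that reached the read minimum, 60 met the rule, and 4 floral or flowering MADS genes among them, *AG*, *PI*, *SEP4* and *FLC*, were left out together with 14 other MADS genes that did not meet it. Levels are CPM, the reads of a gene divided by all gene reads of its library and scaled to 1000000. Because the rule used the contrast between *clf* and wild type, the levels and ratios of these genes between genotypes are given as a description with no test.

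Root RNA came from 4 groups of 3 biological replicates each, wild type (WT, ecotype Col-0) and the *clf* mutant, each grown with iron (+Fe) or without it (-Fe). All plants were germinated and grown on B5 medium for 12 days and were then moved for 3 days to MS medium with FeNa-EDTA or to MS medium without iron that held ferrozine, an iron chelator. The mutant was *clf-29*, a single T-DNA insertion line, so any effect of its background cannot be told apart from that of the *CLF* mutation in these data. Whole roots were sampled, and fewer cells of a type and less RNA per cell cannot be told apart in such bulk RNA.

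*CLF* (CURLY LEAF) is a histone methyltransferase of Polycomb Repressive Complex 2 (PRC2), which trimethylates lysine 27 of histone H3 (H3K27me3). Genes that carry this mark are mostly silent, and many of them are developmental regulators that are kept off in organs where they are not used. In *clf* plants the related enzyme SWINGER (SWN) still deposits part of the mark, and the best known result is that flowering and floral genes are transcribed in leaves. H3K27me3 was not measured in the files used here, so nothing below says which of the 56 genes carry it.

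Each library held between 18658428 and 28281420 counted reads. *CLF* itself was at 44.3 to 59.7 CPM in the 6 WT libraries and at 10.8 to 15.7 CPM in the 6 *clf* libraries, so every library matched its genotype label, and transcript of the gene was still counted in the mutant. Within each group 1 library correlated least with the others, and these 4 libraries, referred to as standing apart, were WT +Fe 1, WT -Fe 1, *clf* +Fe 2 and *clf* -Fe 1. All 12 root markers had reads in every library, with a summed level of 379.9 to 915 CPM in WT and 671 to 1043 CPM in *clf*. Of 16 green tissue markers 14 to 16 had reads, with a sum of 98.6 to 1082 CPM in WT and 213 to 1486 CPM in *clf*. Seed storage and oil body genes summed to no more than 7.72 CPM and anther and pollen markers to no more than 1.33 CPM in any library. The part of these differences between libraries in the levels of the 56 genes was not tested.

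Most of the 56 genes were close to silent in WT roots. The rule set WT levels below *clf* levels and so favours genes low in WT, and this is a description only. The median of their mean levels was 0.504 CPM in WT and 2.56 CPM in *clf*. On the scale of FPKM, which also divides by gene length, 38 of the 56 were under 1 in WT and 12 were under 1 in *clf*. Of all genes that reached the read minimum 7.49% were under 1 in WT and 8.04% in *clf*. By the rule each had reads in all 6 *clf* libraries, and 8 to 11 of them had no read in a given WT library. For the 51 genes with more than 3 reads over the WT libraries the ratio of mean *clf* to mean WT level ran from 2.11 to 31.3 with a median of 4.35, and 30 genes reached 4 and 13 reached 10. In 9 of the 51 the ratio moved by more than 1.5 times when a single library was left out, 4 of them with WT +Fe 1 and 3 with WT -Fe 1, and their values are given with the genes. The spread among *clf* libraries was wide, with a median coefficient of variation of 30.3% over the 6 libraries. The library *clf* -Fe 1 was the lowest of the *clf* libraries for 26 of the 56 genes, and WT +Fe 1 was the highest of the WT libraries for 17. When the 4 libraries that stand apart were left out, 49 of the 56 genes still met the rule. Of the 7 others *AT1G51030*, *ARI3* and *HDA18* fell below the read minimum with 50, 54 and 44 reads, and *AT1G51270*, *LAS1*, *AIR1* and *CYP71A20* fell below the fold with ratios of 1.54, 1.99, 1.79 and 1.90.

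**Figure D1:**
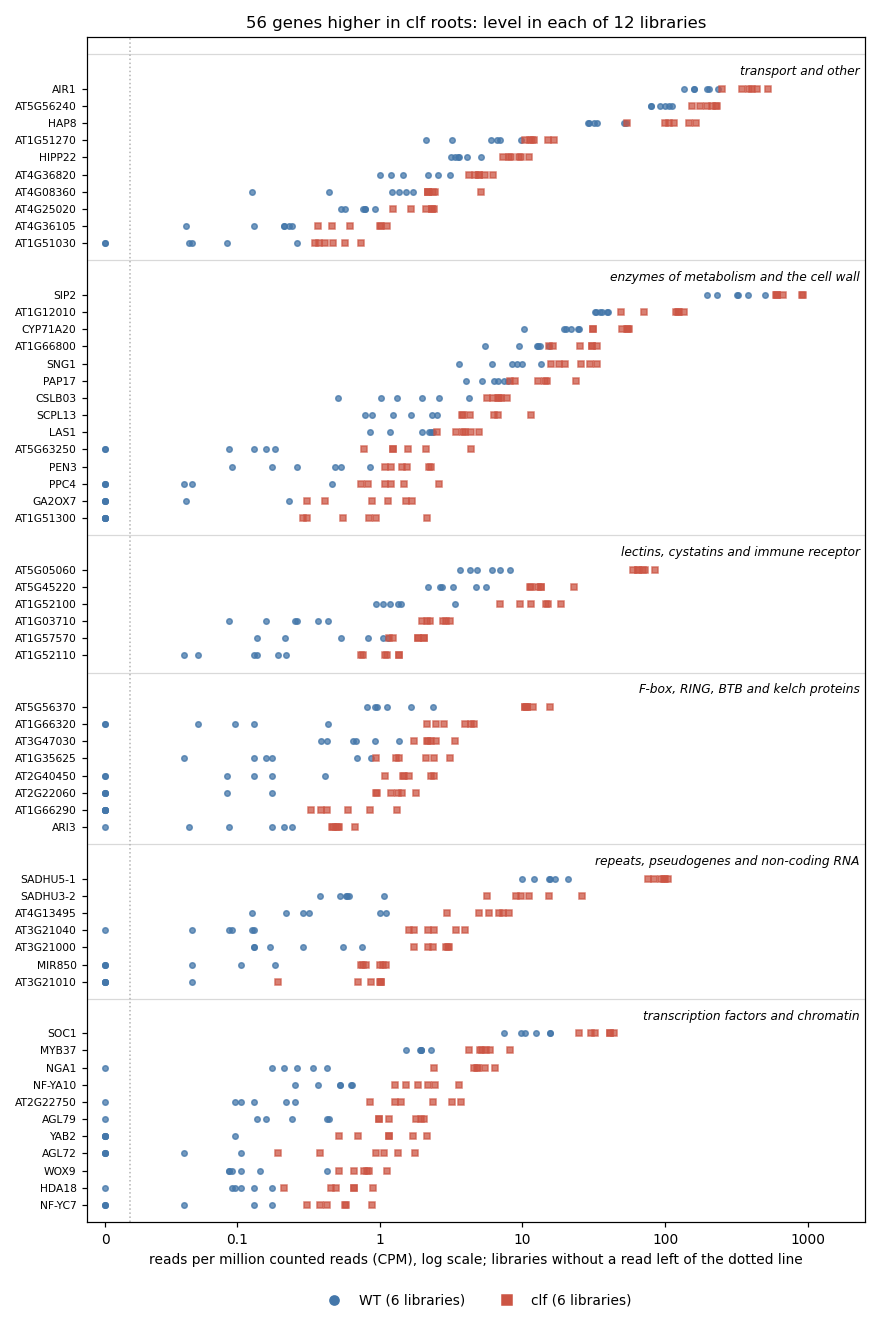
Level of each of the 56 genes in each of the 12 libraries, in CPM on a log scale, with WT libraries as circles, *clf* libraries as squares and genes grouped by role. By the rule no square lies left of a circle of the same gene, and the levels of the genes in *clf* span from under 1 CPM to 913 CPM for *SIP2*.

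The group of transcription and chromatin regulators held 11 genes, and 9 of them averaged under 0.5 CPM in WT. *SOC1*, a MADS factor that integrates flowering signals, was the most abundant, at 7.47 to 15.7 CPM (median 11.4) in WT and 24.9 to 43.6 CPM (median 36.6) in *clf*. *NGA1*, a B3 factor that shapes leaf margins and the style, was at 0 to 0.429 CPM (median 0.240) in WT and at 2.42 to 6.44 CPM (median 4.83) in *clf*, a ratio of 20.04. The lowest *clf* library of both genes was *clf* -Fe 1, and it still lay above all 6 WT libraries. *YAB2*, a YABBY factor of the outer side of leaves and floral organs, had 2 reads over the 6 WT libraries, both in WT +Fe 3, against 177 in *clf*, where it ranged from 0.523 to 2.14 CPM. Its ratio was 79.9 with a 95% counting interval of 21.8 to 665. Like all such intervals here it covers counting error only, and neither the spread between libraries nor the choice of the genes by this contrast. An interval above 1 is therefore no test. *AGL72*, a MADS factor related to *SOC1*, had 3 reads in WT and 136 in *clf*, a ratio of 40.9 with an interval of 13.7 to 201. *AGL79*, a further MADS factor, was at 0 to 0.443 CPM (median 0.202) in WT and 0.988 to 2.04 CPM (median 1.49) in *clf*. With *SOC1*, *AGL72* and *AGL79* the set held 3 MADS genes beside the 4 that were left out.

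*WOX9*, a homeobox factor needed for growth of embryo and meristem, was at 0.0878 to 0.428 CPM (median 0.10) in WT and at 0.523 to 1.12 CPM (median 0.798) in *clf*. One WT library, WT -Fe 2, stood above the other WT libraries and close to the lowest *clf* library, and the ratio of 5.0 was 7.58 without it. *MYB37*, a MYB factor of axillary meristems, was already expressed in WT at 1.54 to 2.30 CPM (median 1.95) and was at 4.21 to 8.14 CPM (median 5.36) in *clf*. *NF-YA10* and *NF-YC7* are subunits of the CCAAT-binding nuclear factor Y, and their *clf* levels were 1.29 to 3.61 CPM (median 2.02) and 0.312 to 0.884 CPM (median 0.50) against WT maxima of 0.643 and 0.176 CPM. The ratio of *NF-YC7*, 8.99, was 15.0 without WT -Fe 1. The bHLH gene *AT2G22750* reached 0.857 to 3.74 CPM (median 1.90) in *clf* and at most 0.257 CPM in WT. *HDA18*, a histone deacetylase with a role in root epidermal patterning, was at 0.215 to 0.897 CPM in *clf* and at 0 to 0.176 CPM in WT. All of these genes but *SOC1* and *MYB37* were so low in WT that each WT level rests on few reads.

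Retrotransposon-derived loci, pseudogenes and non-coding RNAs made up 7 of the 56 genes and had the highest median ratio of any group, 13.9 over the 6 with enough WT reads. The 7 include 3 diverged copies and an overlapping pair, described below, so they are not 7 separate cases. Of the 7, 4 averaged under 0.5 CPM in WT. SADHU elements are short non-coding retrotransposon-like repeats of the Arabidopsis genome. *SADHU5-1* was the most abundant, at 9.88 to 20.9 CPM (median 15.4) in WT and 75.3 to 105 CPM (median 95.02) in *clf*. *SADHU3-2* was at 0.385 to 1.07 CPM (median 0.587) in WT and 5.62 to 26.2 CPM (median 10.4) in *clf*, with the top value in *clf* +Fe 2. Both loci kept a gap of several-fold between the lowest *clf* and the highest WT library. On chromosome 3 the Gag-Pol-related gene *AT3G21000* and the pseudogenes *AT3G21010* and *AT3G21040* lay within 10.5 kb. *AT3G21040* had the largest ratio of the 51, 31.3, from 0 to 0.133 CPM in WT to 1.62 to 3.94 CPM in *clf*. *AT3G21010* had 1 read in WT and 115 in *clf*, a ratio of 103.9 with an interval of 18.3 to 4138. *AT3G21000* averaged 0.339 CPM in WT and 2.56 CPM in *clf*. These 3 loci align with each other over 394 to 769 bases at 73.1% to 75.3% identity and are thus diverged copies.

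The microRNA gene *MIR850* lies inside the non-coding RNA gene *AT4G13495* on the same strand, over 221 bases, so the reads of the pair cannot be told apart there and the 2 genes are not separate observations. *AT4G13495* was at 0.128 to 1.12 CPM (median 0.307) in WT and 2.95 to 8.05 CPM (median 6.33) in *clf*. *MIR850* had 7 reads over the WT libraries and 133 over the *clf* libraries, a ratio of 16.1 that was 29.5 without WT +Fe 1. Libraries of messenger RNA count the precursor transcript and not the mature microRNA. The mature sequence is shown because it is the product named in the annotation for the transcript that was higher. It lies at chr4:7845756-7845777 on the plus strand of TAIR10.1 (RefSeq), and its seed, bases 2 to 8, is in capitals.
miR850: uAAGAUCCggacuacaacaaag

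Proteins that act in or resemble parts of ubiquitin ligases, with F-box, RING, BTB or kelch domains, made up 8 genes. F-box proteins choose the substrates of SCF ubiquitin ligases. *AT5G56370* was at 0.813 to 2.37 CPM (median 1.04) in WT and 10.4 to 15.5 CPM (median 10.8) in *clf*. *AT1G66320* was at 0 to 0.439 CPM in WT and 2.16 to 4.56 CPM in *clf*, a ratio of 28.2 that became 59.9 without WT -Fe 1, which held 10 of its 16 WT reads. Its neighbour *AT1G66290* had no read in WT and 0.332 to 1.33 CPM in *clf*, at least 27.7-fold higher when 3 reads over the WT group are taken as the floor. The F-box gene *AT3G47030* had a ratio of 3.19. The kelch gene *AT2G22060* and the BTB gene *AT2G40450* had ratios of 29.4 and 12.7 from WT means near 0.1 CPM or below. Without WT -Fe 1 the first was 74.9 on 2 WT reads with an interval of 18.7 to 569.7, and without WT +Fe 1 the second was 21.9. The RING genes *AT1G35625* and *ARI3* had ratios of 5.42 and 4.10. No gene of this group averaged more than 1.31 CPM in WT.

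Lectins, cystatins and an immune receptor made up 6 genes. Cystatins inhibit papain-like cysteine proteases, and *AT5G05060*, annotated to that superfamily, was at 3.63 to 8.12 CPM (median 5.45) in WT and 59.8 to 84.3 CPM (median 67.0) in *clf*, a ratio of 12.2. *AT1G03710*, of the same superfamily, had a ratio of 9.62 at a *clf* mean of 2.53 CPM. Jacalin-type lectins bind mannose, and 3 genes of that annotation were among the 56. *AT1G52100* was at 0.941 to 3.39 CPM (median 1.26) in WT and 6.98 to 18.7 CPM (median 13.0) in *clf*, with its highest WT value in WT +Fe 1 and its lowest *clf* value in *clf* -Fe 1. *AT1G52110*, directly next to it, had a ratio of 8.28 and *AT1G57570* one of 2.59. *AT5G45220*, a disease resistance gene of the TIR-NBS-LRR class, was at 2.17 to 5.55 CPM (median 2.99) in WT and 11.2 to 23.0 CPM (median 13.1) in *clf*. In this group 4 of 6 genes had a WT mean of 0.5 CPM or more.

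Enzymes of metabolism and the cell wall made up the largest group, 14 genes, with a lower median ratio of 2.89. *SIP2*, a raffinose-specific alpha-galactosidase, was the most abundant of all 56 genes, at 195.3 to 495 CPM (median 319.7) in WT and 596 to 913 CPM (median 635) in *clf*. *AT1G12010*, a 2-oxoglutarate-dependent oxygenase, was at 32.3 to 39.6 CPM (median 35.6) in WT, and in *clf* ranged from 48.6 CPM in *clf* -Fe 1 to 135 CPM (median 120.9). The cytochrome P450 gene *CYP71A20* was at 10.3 to 24.7 CPM (median 21.0) in WT and 31.3 to 55.5 CPM (median 51.9) in *clf*. These 3 genes were clearly expressed in WT roots and differ from the near-silent genes above by their small ratios. *SNG1*, which makes sinapoylmalate, was at 3.6 to 13.5 CPM (median 8.79) in WT and 15.7 to 33.0 CPM (median 22.7) in *clf*, and the neighbouring *SCPL13* of the same family had a ratio of 3.87. *PAP17*, an acid phosphatase known from phosphate starvation, had a ratio of 2.21, and *AT1G66800*, an NAD(P)-binding Rossmann-fold protein, one of 2.20. *LAS1* and *PEN3* close the rings of triterpenes, and their ratios were 2.11 and 4.06. *GA2OX7*, which inactivates gibberellin precursors, was at 0 to 0.232 CPM in WT and 0.312 to 1.68 CPM in *clf*, a ratio of 21.5. WT +Fe 1 held 5 of its 6 WT reads, and without that library the ratio was 112.9 with a counting interval of 18.3 to 4134. *PPC4*, the bacterial-type phosphoenolpyruvate carboxylase, had a ratio of 14.3 and *AT5G63250*, with a carbohydrate-binding X8 domain, one of 19.98, both from 12 reads in WT. For *PPC4* 10 of these reads were in WT +Fe 1, and the ratio without it was 72.5 with an interval of 20.06 to 610.6. *AT1G51300*, a predicted hydrolase, had no WT read and was at least 35.2-fold higher by the same floor of 3 reads.

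The remaining 10 genes had ratios of 2.11 to 6.57. *AIR1*, a lipid-transfer-like protein first found in auxin-treated root cultures, was at 134 to 235 CPM (median 178) in WT and 248 to 520 CPM (median 395) in *clf*. The neighbours *AT5G56240* and *HAP8*, named for mutants with defective male gametophytes, were at 79.2 to 111 CPM (median 94.9) and 28.7 to 52.9 CPM (median 32.5) in WT and at 153 to 229.6 CPM (median 205) and 53.5 to 163 CPM (median 110.7) in *clf*. Both were lowest among the *clf* libraries in *clf* +Fe 2. *HIPP22*, of a metallochaperone family, and *AT1G51270*, a vesicle-associated protein, had ratios of 2.36 and 2.22, and *AT4G36820*, annotated as a mitochondrial-type calcium uniporter, one of 2.64. Of the others *AT4G36105*, *AT4G25020* and *AT4G08360* had ratios of 4.28, 2.76 and 2.57, and *AT1G51030*, of unknown function, had 71 reads in *clf* and a ratio of 6.57, or 13.5 without WT -Fe 3.

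**Figure D2:**
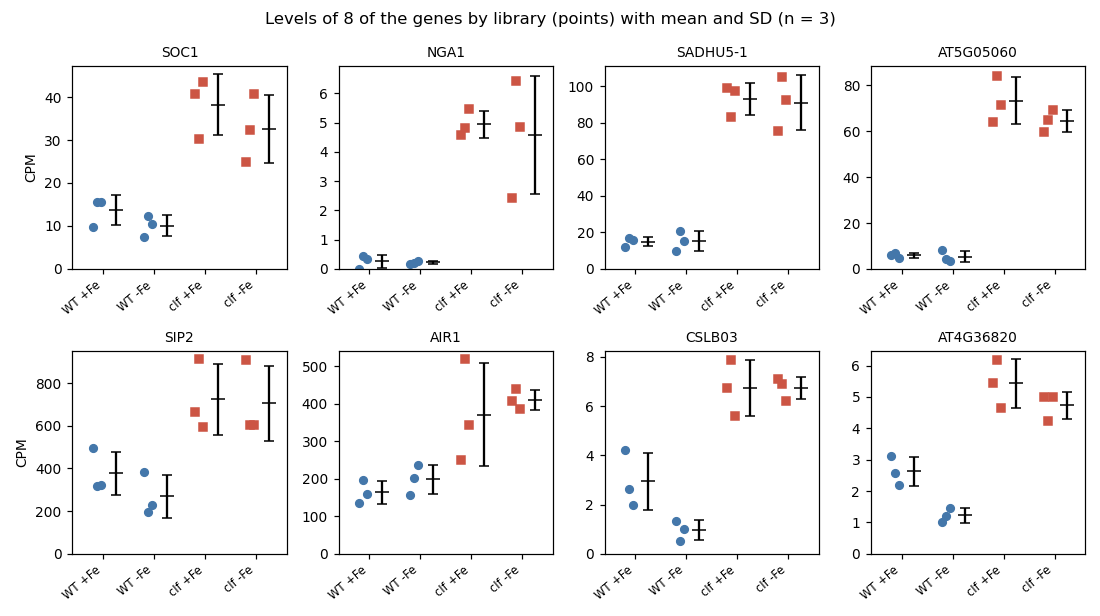
Level of 8 of the genes in CPM in each of the 4 groups, with a point for each library and the mean and SD of the 3 libraries beside it. *NGA1*, *SADHU5-1* and *AT5G05060* were low in both WT groups and high in both *clf* groups, and *CSLB03* and *AT4G36820* were lower in WT -Fe than in WT +Fe.

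A threshold cuts through a continuum. The smallest ratios inside the rule were 2.11 for *AT5G56240*, 2.11 for *LAS1* and 2.16 for *AIR1*, and the largest outside it, among genes that met the other conditions, were 1.93 for *NF-YA9*, 1.92 for *NF-YA8* and 1.91 for *AT5G60650*. The narrowest separations inside, as lowest *clf* over highest WT level, were 1.00 for *AT1G66800* and 1.01 for both *HAP8* and *AT1G57570*, and just outside stood *ERD5*, *AT5G14650* and *RK2* at 0.988, 0.978 and 0.978. The fewest *clf* reads inside were 71 for *AT1G51030*, 76 for *ARI3* and 77 for *NF-YC7*, and outside *LCR85* and *AT5G25230* had 58 and *AT2G05430* had 56. *NF-YA8* and *NF-YA9* belong to the same family as *NF-YA10*. With no fold minimum 90 genes would have been chosen. The mirrored rule, lower in every *clf* library, found 24 genes, *CLF* among them.

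The ratio of *clf* to WT was similar in the 2 iron conditions for most of the genes. Of the 43 genes with more than 3 WT reads in each condition, 21 had a higher ratio with iron and 22 without, and the median ratio was 3.77 with +Fe and 4.10 with -Fe. Across these 43 genes the log2 ratios of the 2 conditions correlated with r = 0.76, which is a description, since the rule required separation over both conditions and each ratio rests on 3 libraries a group. *NGA1* had ratios of 19.3 and 20.9, *SADHU3-2* of 20.1 and 20.9, *AT5G05060* of 12.3 and 12.1 and *SOC1* of 2.79 and 3.24. In 3 genes the ratios differed by more than 2-fold, and in all of them the larger ratio was without iron. They were *AT1G35625* with 2.1 and 21.8, *CSLB03* with 2.28 and 7.10 and *AT3G21000* with 5.13 and 16.4.

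**Figure D3:**
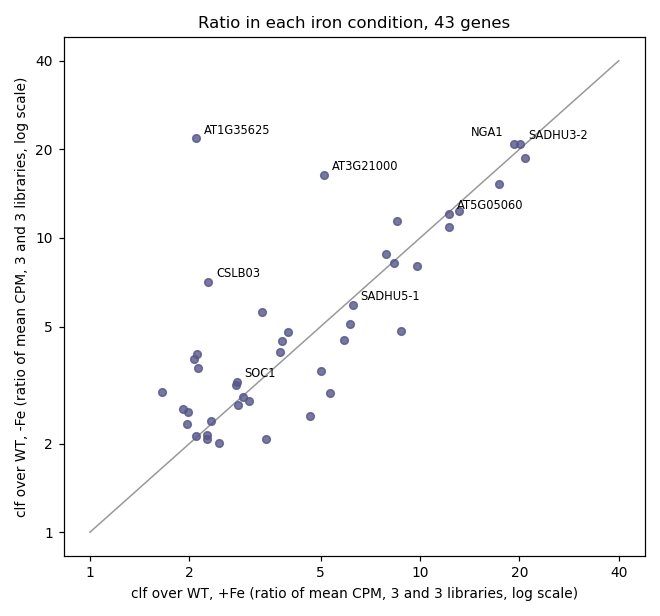
Ratio of mean *clf* to mean WT level with iron (horizontal) and without iron (vertical), both on log scales, for the 43 genes with more than 3 WT reads in each condition, with the line of equal ratios. Most points lie near the line, and *AT1G35625*, *AT3G21000* and *CSLB03* lie above it by more than 2-fold.

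The rule did not compare the iron conditions, yet it bears on them. Since libraries of both conditions had to separate, a gene with a large change between conditions was less likely to be chosen, and 91 genes met the rule when separation was asked within each condition only. Few WT reads are a second limit. With the WT libraries alone 29 of the 56 genes, with 52 to 41632 WT reads, passed the filter on low counts, and the other 27, with 0 to 67 WT reads, passed it only through the *clf* libraries in which the rule made them high. Standard errors here were derived from edgeR's test, as the absolute log2 difference divided by the square root of its F statistic. For the iron response in WT they had a median of 0.33 (log2) in the 29 and of 0.88 in the 27. The 2 genes without a WT read, *AT1G51300* and *AT1G66290*, enter the 27 with a value of 0 that is no sign of precision. The median of the 27 is thus, if anything, too low. For both reasons nothing about the 56 genes as a set is read from the counts of iron calls, and the tests are given for the single genes.

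In WT, 2 of the 56 genes fell under iron deficiency and none rose at an adjusted p under 0.05 in edgeR's quasi-likelihood test, adjusted after Benjamini and Hochberg. Over all 20168 genes tested 2.28% rose and 2.14% fell. Both called genes, *CSLB03* and *AT4G36820*, were among the 29. Without adjustment 4 of the 56 were higher and 8 lower at p under 0.05, against 8.82% and 9.79% of all genes, and DESeq2 called 4 lower and none higher, against 4.32% and 4.48% of all genes. In *clf* none of the 56 passed in either direction by edgeR, against 1.27% of all genes that rose and 0.491% that fell. Without adjustment 4 were higher and 2 lower there, against 7.09% and 6.30% of all genes, and DESeq2 called 1 gene higher and none lower, against 2.92% and 1.89%.

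*CSLB03*, a cellulose synthase-like gene, was at 4.23, 2.63 and 2.00 CPM in WT +Fe and at 1.32, 0.513 and 1.02 CPM in WT -Fe. The 2 WT groups did not overlap, and the gene fell by 1.56 ± 0.33 (log2, SE; edgeR adjusted p = 0.0227). In *clf* it was at 6.75, 7.86 and 5.61 CPM with iron and at 7.10, 6.90 and 6.23 CPM without it, a log2 difference of 0.12 with an adjusted p of 0.916. The calcium uniporter gene *AT4G36820* was at 3.12, 2.57 and 2.19 CPM in WT +Fe and at 1.01, 1.20 and 1.46 CPM in WT -Fe, and fell by 1.01 ± 0.24 (log2, SE; edgeR adjusted p = 0.0363). In *clf* it was at 5.45, 6.19 and 4.66 CPM with iron and 4.99, 4.24 and 4.98 CPM without. With the replicate number as a block *AT4G36820* no longer passed (edgeR adjusted p = 0.0594) and *CSLB03* did (0.0283). In a fit of the 6 WT libraries alone no gene of the set passed without the block, and with it *CSLB03* (edgeR adjusted p = 0.0451) and *SIP2* did, which fell by 0.45 (log2, edgeR adjusted p = 0.0368), whereas *AT4G36820* did not (edgeR adjusted p = 0.102). That fit called 6.45% of all genes higher and 5.83% lower, and 29 of the 56 genes entered it. The call of *CSLB03* was also lost when WT +Fe replicate 1 or 2 or WT -Fe replicate 2 or 3 was left out, with log2 differences of -1.26 to -1.66 there, and with limma on log2(FPKM + 1), a scale that understates changes of low genes, at -0.66 (limma adjusted p = 0.0729). The call of *AT4G36820* was lost when any single WT library was left out, and also without *clf* +Fe 1 or 3 or *clf* -Fe 2 or 3, over a range of -0.84 to -1.19. It was lost as well with no filter on low counts (edgeR adjusted p = 0.051) and without the 4 libraries that stand apart, at a log2 difference of -0.74 (edgeR adjusted p = 0.072), in a fit that called 27.3% of all genes.

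Whether the response to iron differed between genotypes was tested as an interaction. None of the 56 genes passed by edgeR or by DESeq2, and over all genes edgeR called 0.0% of them more positive and 0.0% more negative in *clf*. The test had little power, since on simulated counts it found 3 of 100 genes with a 2-fold and 49 of 100 with a 4-fold difference. Those genes were drawn at random from all genes tested, so the rates are not those of the 56. Without adjustment 5 of the 56 had a more positive and 2 a more negative response in *clf* at p under 0.05, beside 160 genes, 0.793% of all 20168, each way. The 5 were *AT1G35625*, *CSLB03*, *MIR850*, *AT3G21000* and *AT4G36820*, with log2 differences between the responses of 3.39, 1.69, 4.61, 1.67 and 0.93 and edgeR adjusted p-values that all stood at 1.00. The 2 were *NF-YC7* and *AT2G22060*, both with no read in WT +Fe and with 8 and 6 reads in WT -Fe. *MIR850* had 7 reads in WT +Fe and none in WT -Fe, so its fitted value rests on the prior count. The limits set by the rule and by few WT reads hold here too. That the larger ratios without iron in *CSLB03*, *AT1G35625* and *AT3G21000* differ from those with iron is therefore not shown at the level of all genes.

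**Figure D4:**
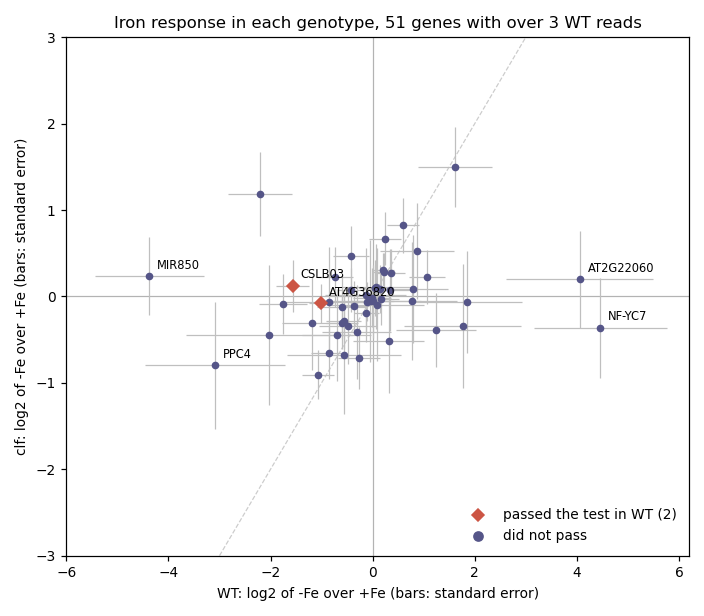
Log2 difference between -Fe and +Fe in WT (horizontal) and in *clf* (vertical) for the 51 genes with more than 3 WT reads, each point a gene and each bar a standard error derived from edgeR's F statistic. *CSLB03* and *AT4G36820*, drawn as diamonds, passed the test in WT, and the genes at the far left and right have wide bars in WT.

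Genome position was not part of the rule. The 56 genes lay on all 5 chromosomes, 16, 9, 10, 9 and 12 of them on chromosomes 1 to 5, and the share on each, 28.6%, 16.1%, 17.9%, 16.1% and 21.4%, was close to that of the 19609 annotated genes with as many *clf* reads, 26.4%, 15.2%, 19.9%, 15.2% and 23.4%. Along the chromosomes some of them lay close together. A gene of the set lay within 10 kb of another in 13 cases, whereas 0.808% of the other genes with enough reads lay within 10 kb of a gene of the set and none of the 24 genes lower in *clf* lay so close to another of those. These distances count neighbouring copies of a family and the overlapping pair of *AT4G13495* and *MIR850*. The 24 genes are a smaller set with fewer possible pairs, and no test of the spacing was made.

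The closest groups were made mostly of related genes. *AT1G52100* and *AT1G52110*, the lectins at chr1:19383078-19385602 and chr1:19386709-19389740, had no gene between them and 1106 bases of distance, and aligned over 249 bases at 69.5% identity. *SCPL13* and *SNG1* at chr2:9778759-9783310 and chr2:9786087-9790335 were also direct neighbours, as were *AT5G56240* and *HAP8* at chr5:22759663-22764587 and chr5:22768453-22773021. The F-box genes *AT1G66290* and *AT1G66320* were 11968 bases apart with 2 genes between them and aligned over 1593 bases at 77.5% identity. *AT1G51270* and *AT1G51300*, a vesicle-associated protein and a hydrolase, were 2969 bases apart with 1 gene between them. *GA2OX7* and *AT1G51030* were 23295 bases apart. All coordinates are those of TAIR10.1, whose nuclear chromosomes are the ones of TAIR10 that the authors used.

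On chromosome 2, 4 of the 56 genes, *AT2G22060*, *AT2G22750*, *SCPL13* and *SNG1*, lay within 600 kb of *CLF*, at 573, 281, 172 and 165 kb. That is 7.14% of the 56, beside 1.03% of the genes with as many *clf* reads. Within 200 kb the shares were 3.57% and 0.326%, and within 1000 kb 7.14% and 1.79%. *SCPL13* and *SNG1* are direct neighbours of the same family and not separate cases. Linkage to the T-DNA insertion and an effect of the *CLF* mutation cannot be told apart for these 4 genes with 1 mutant line.

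On either side of each of the 56, the first annotated gene outside the set was taken. Genes of the set were passed over, as for the 10 that lie directly next to another, and the listed MADS genes were removed. The neighbours therefore hold no gene that met the rule on this same contrast, which limits how many could be called higher, whereas all genes include the 56. Of the 101 genes taken in this way, 58 were tested for their difference between genotypes. The edgeR test called 1 higher and 1 lower in *clf*, 1.72% each way, beside 0.327% of all genes higher and 0.104% lower. The median log2 difference of the 58 was 0.14 and that of all genes -0.01. The 1 higher gene was *TPS13*, a terpene synthase 3910 bases from *CYP71A20* on the opposite strand, at a mean of 7.0 CPM in WT and 26.2 CPM in *clf* (log2 difference 2.16 ± 0.32 SE, edgeR adjusted p = 0.0126). The 1 lower gene was *MAM1*, which elongates methionine in glucosinolate synthesis, 5018 bases from *MYB37*, at 46.1 CPM in WT and 19.9 CPM in *clf* (log2 difference -1.16 ± 0.20 SE, edgeR adjusted p = 0.0283). *AGL71*, the MADS gene beside *AGL72*, averaged 0.269 CPM in WT and 2.00 CPM in *clf* and did not pass (edgeR adjusted p = 0.247), nor did *CSLB04* beside *CSLB03*, at 0.367 and 1.18 CPM, or *SCPL11* and *scpl10* beside *SCPL13* and *SNG1*. *TPS13* no longer passed without WT -Fe replicate 2, and *MAM1* no longer passed without WT +Fe replicate 2 or 3, any WT -Fe replicate, *clf* +Fe replicate 1 or *clf* -Fe replicate 2 or 3. With only the 6 +Fe or the 6 -Fe libraries no flanking gene was called, whereas *TPS13* passed in the 6 -Fe libraries once replicate number was a block (edgeR adjusted p = 0.043). DESeq2 called 5 higher and 1 lower, against 1.5% and 0.57% of all genes, and without the 4 libraries that stand apart 8 were higher and 3 lower, against 4.31% and 3.35% of all genes.

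**Figure D5:**
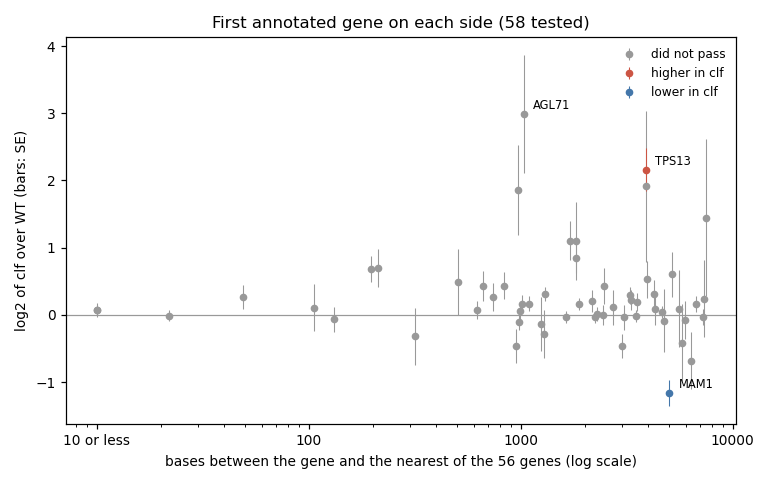
Log2 difference between *clf* and WT (bars are SE) for the 58 tested first neighbours outside the set, against their distance in bases from the nearest of the 56 genes on a log scale. Neighbours that met the rule are not among them. Most points lie near 0, and *TPS13* at 3910 bases and *MAM1* at 5018 bases passed the test.

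Short motifs were searched on both strands in the 300 bases from 250 before to 50 after each annotated start. Each share is set first beside that of all 31911 promoters of the same length. The second value is for the 19608 promoters of genes with as many *clf* reads. The telobox AAACCCTA was present in 8 of 56 (14.3%), against 6.24% and 5.54%. The repeat GAGAGAGA was present in 3 (5.36%) against 7.94% and 8.5%. The RY element CATGCATG was present in 2 (3.57%) against 1.14% and 0.622%. Its core CATGCA, which the longer form contains, was present in 3 (5.36%) against 10.3% and 8.26%. The G-box CACGTG was present in 3 (5.36%) against 7.0% and 8.6%. TGGGCC, a motif with no known tie to PRC2, was present in 5 (8.93%) against 14.1% and 18.6%. Telobox, GA repeat and RY element are letters that proteins which recruit PRC2 in Arabidopsis are known to bind. A match of letters is a description and not a binding site, and the counts are small.

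The stretches before the start that hold the telobox are shown because this was the motif found most often, with the telobox of either strand in capitals, as given by the TAIR10.1 sequence of RefSeq on the strand of the gene. Those of the 3 chromosome 3 loci come from diverged copies and are not separate cases. *AT2G40450*, the 8th gene, holds its match behind the start.
PAP17, chr3:6089316-6089363: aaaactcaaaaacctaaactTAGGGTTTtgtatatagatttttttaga
AT3G21000, chr3:7363791-7363838: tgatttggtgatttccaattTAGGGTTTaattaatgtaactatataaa
AT3G21010, chr3:7366095-7366142: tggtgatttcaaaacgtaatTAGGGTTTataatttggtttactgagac
AT3G21040, chr3:7372620-7372667: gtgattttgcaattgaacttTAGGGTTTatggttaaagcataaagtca
AT4G13495, chr4:7842874-7842921: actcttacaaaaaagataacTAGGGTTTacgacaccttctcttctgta
NF-YC7, chr5:20555775-20555822: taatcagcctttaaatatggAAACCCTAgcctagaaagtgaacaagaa
AGL72, chr5:21084493-21084540: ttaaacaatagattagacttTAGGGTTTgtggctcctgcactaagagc

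*MYB37* and *MIR850* were the 2 genes with the full RY element before the start, and their stretches are shown for that reason, with every base of the element or its core on either strand in capitals. The stretch of *MIR850* lies inside *AT4G13495*.
MYB37, chr5:7695955-7696004: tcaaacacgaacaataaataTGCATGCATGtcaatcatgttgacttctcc
MIR850, chr4:7845537-7845584: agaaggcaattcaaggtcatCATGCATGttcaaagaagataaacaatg

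By annotation 50 of the 56 genes code for proteins, 4 are pseudogenes, 1 is a microRNA gene and 1 another non-coding RNA. Some families stood in the set more often than among the 19609 annotated genes with as many *clf* reads. F-box genes were 4 of the 56 (7.14%) against 0.877%, MADS genes 3 (5.36%) against 0.168%, mannose-binding lectins 3 (5.36%) against 0.122%, genes annotated as transposon-related 3 (5.36%) against 0.112%, pseudogenes 4 (7.14%) against 0.632% (though 12.3% of all annotated genes, with reads or not, are pseudogenes), and nuclear factor Y subunits and cystatins 2 each (3.57%) against 0.148% and 0.0561%. Families were found by keywords in the annotation. By these keywords protein kinases, 5.67% of those 19609, and transporters, 1.80%, had no member in the set. The keywords for transporters did not take in the calcium uniporter gene *AT4G36820* or *HIPP22*, annotated to a heavy metal transport and detoxification family. The genes were short, with a median length of 1874 bases against 2403, and 15 (26.8%) had a single exon against 14.9%. These shares carry no test, and related neighbours count more than once in them.

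Other genes of the same kinds were followed in 15 lists with 176 genes, of which 107 were tested in the same contrast of genotypes. Of the genes tested, 8 had met the rule on this same contrast, *SOC1*, *YAB2*, *WOX9* and *PEN3* of the 56 and the MADS genes *AG*, *FLC*, *PI* and *SEP4* that were left out, so nothing is read from their tests. Of the 99 others 2 were higher and 1, *CLF*, was lower in *clf* by edgeR at an adjusted p under 0.05, beside 0.327% and 0.104% of all genes. Without adjustment 12 of them were higher and 9 lower at p under 0.05, beside 5.38% and 4.09% of all genes. DESeq2 called 4 higher and 2 lower, against 1.5% and 0.57% of all genes. Outside the 56, *KNAT1* and *KNAT4* were the 2 of 7 tested KNOX homeobox genes that passed, with log2 differences of 1.1 ± 0.18 and 0.92 ± 0.15 (SE; edgeR adjusted p = 0.0203 and 0.0204). *KNAT1* was at 3.72 to 8.76 CPM in WT and 7.73 to 19.4 CPM in *clf*, so its ranges overlapped, which kept it out of the set. Neither passed when WT +Fe replicate 2 or 3, *clf* +Fe replicate 1 or 3 or *clf* -Fe replicate 3 was left out.

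Among the 99 no gene of the other lists but *CLF* passed by edgeR, and the unadjusted counts that follow are to be read beside those shares of all genes. Of 6 tested WOX genes other than *WOX9*, 1 was higher and 1 lower at 0.05 without adjustment, and DESeq2 called none. Of 13 tested genes of the triterpene gene clusters other than *PEN3*, 4 were higher without adjustment, among them *MRN1* with an edgeR adjusted p of 0.0998, the median log2 difference was 0.82 beside -0.01 over all genes, and *MRN1* was the 1 gene called higher by DESeq2. Of 9 tested MADS genes that did not meet the rule 4 were higher without adjustment, and DESeq2 called 1 higher. Of the 11 tested PRC2, LHP1 and demethylase genes none other than *CLF* passed the unadjusted threshold. The 4 tested embryo and seed maturation regulators and the 6 tested PLT and AIL genes had 2 lower genes each without adjustment, and DESeq2 called 1 and 0 of them lower. Of the 12 root markers 3 were lower without adjustment, and of 8 iron genes that the study lists as H3K27me3 targets 1 was higher without adjustment. The 15 green tissue, 3 seed storage, 1 anther and pollen and 2 endosperm genes tested had none at an unadjusted p under 0.05 by edgeR. DESeq2 called 0 genes in these last 6 lists. Without the 4 libraries that stand apart, where 4.31% of all genes were higher and 3.35% lower, more list genes passed. Among those that had not met the rule they were 8 triterpene cluster genes, 3 MADS genes, 4 green tissue markers, 2 KNOX genes, 1 WOX gene and 1 root marker, all higher, and *CLF* and 1 embryo and seed maturation regulator that were lower. Of the 8 iron genes 3 passed there, *FIT*, the factor that drives iron uptake, and the iron transporter gene *IRT2* with log2 differences of 0.39 and 1.23, and *FRD3*, a citrate exporter gene, with -0.29 (edgeR adjusted p = 0.0267, 0.0455 and 0.0443).

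Copies limit what some of these counts mean. *AT5G05060* matched *AT5G05040* over 557 bases at 98.9% identity, where 20 reads in *clf* and 0 in WT were counted. *AT1G66320* matched *AT1G66640* over 1827 bases at 97.8% identity, with 7 and 0 reads there, so reads of these genes could have been split between copies. *SADHU5-1* matched a stretch of chromosome 1 without an annotated gene over 745 bases at 99.1% identity, and its level could hold reads from both places. *LAS1* matched *AT5G27590*, which had no reads. *AIR1* overlaps *AT4G12555* on the opposite strand over 642 of its 691 bases, so that without strand the reads of the 2 genes could not be told apart and its level is uncertain. *AT3G21000* and *HAP8* overlap genes on the opposite strand by 93 and 19 bases, and *PAP17* and *AT1G35625* by 122 and 2 bases. The partners of *AIR1*, *AT3G21000* and *HAP8* have no row in the counts used. No source used here gives the strand setting of the counting.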

How the data were processed

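RNA was measured in 12 root libraries, made with a stranded mRNA kit and sequenced as paired-end reads of 150 bases. The authors aligned the reads to TAIR10, TopHat2 being named in the submitters' processing notes with its version not given, and counted them per gene with HTSeq in union mode. They deposited raw counts, and in a second table FPKM that the authors computed from them (fragments per kilobase of transcript, scaled to library depth). No source used here gives the strand setting of the counting. An unnamed column of the count table, which holds the word FRO2 in 1 cell, was not used. Replicates are biological replicates per the study's methods.

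From the counts, CPM was computed on the column sums, and the rule was applied to all 32678 genes. The 56 genes and all lists were chosen with earlier results of these data known. Genes are named if they belong to a list, are among the 12 with the highest clf level or the 12 with the largest ratio, have 3 or fewer WT reads, passed an iron test, lie next to a threshold or within 10 kb of another of the genes, are CLF, or are among the 4 genes with the smallest p of a list; the others are named in the account by role. Iron responses, their difference and the genotype contrast of lists and flanking genes were tested with edgeR 4.0.16 (R 4.3.3; TMM factors, filterByExpr, robust quasi-likelihood fit of all 4 groups, 8 residual degrees of freedom) on 20168 genes, with Benjamini-Hochberg adjustment over all of them and a threshold of 0.05. On simulated counts it recovered 27 of 100 genes changed 2-fold and 86 of 100 changed 4-fold in the iron contrast of WT, with 5 false calls. In the genotype contrast it recovered 64 and 98 with 12 false calls, and in the difference between the iron responses 3 and 49 with 3. The counts were drawn independently with the fitted dispersions, so libraries that deviate together over many genes, as those that stand apart do, were not simulated. The changed genes were drawn at random from all genes tested. The rates are therefore not those of the 56 genes, many of which had few WT reads. All 56 genes passed the filter on low counts, 27 of them only through the *clf* libraries. Positions, exons and sequences come from RefSeq's annotation of TAIR10.1, in which 31912 identifiers matched, and copies were searched with blastn 2.17.0 (95% identity over at least 100 bases).

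Replicate numbers pair the libraries where samples of the same number deviate together. In the iron contrast of WT the correlations of same-numbered libraries were 0.616, 0.44 and 0.463. The highest with a library of another number were -0.503, 0.412 and 0.429. Only replicate 1, whose 2 WT libraries both stand apart, differed clearly, so pairs are not shown for numbers 2 and 3. The WT fits with the block rest on such pairs and are given as alternatives. In the same way the correlations of same-numbered libraries were looked at in the other contrasts. In the iron contrast of *clf* 2 of the 3 were below 0. Between genotypes they were 0.448, 0.541 and 0.165 without iron, but 2 of the 3 were below 0 with iron, so the numbers do not pair the contrast over both conditions. Alternatives were RLE factors, DESeq2 1.42.0, no filter or a minimum of 10 reads in each library, a replicate block, only the libraries compared, limma 3.58.1 on log2(FPKM + 1) and log2(FPKM + 0.1), leaving out each library, leaving out the 4 libraries that stand apart, and, for the rule, other minima, folds and units. The fits of only the WT, the *clf* or the -Fe libraries with the block, the ratios with each library left out and the alternatives for flanking genes were added after the data were seen.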

Additional observations from a re-analysis of the deposited data

How the results depend on the processing

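The number of genes that meet the rule moved most, to 115 (49 of the 56 and 66 others), without the 4 libraries that stand apart. It was 33 with a minimum of 300 reads, 35 at 4-fold, 90 with no fold minimum, 91 with libraries kept apart within each iron condition only, 67 on CPM from TMM library sizes (53 of the 56 and 14 others, without *AT1G57570*, *AT1G66800* and *HAP8*), 79 with no read minimum, 72 at 1.5-fold and 57 to 75 when a single library was left out. The count of the 56 genes called for iron in WT, 2 beside 4.41% of all genes, was 1 with no filter (3.13% of all genes), 1 with the replicate block (4.35%), 4 with DESeq2 (8.8%), 1 with limma on log2(FPKM + 1) (5.0%), 5 without the 4 libraries (27.3%) and 0 with only the libraries compared (2.11%), where the block, chosen after seeing the data, gave 2 (12.3%). It was 0 to 2 with a library left out (1.55% to 6.89%). In *clf* the count of 0, beside 1.77%, became 1 with DESeq2 (4.81%), 1 with limma on log2(FPKM + 1) (2.34%) and 5 without the 4 libraries (14.6%). For the difference between the iron responses it became 2 without them (2.25%). The 9 list genes called, 6 of which had met the rule, stood beside 0.431% of all genes. They became 5 with at least 10 reads in every library (0.223% of all genes), 14 with DESeq2 (2.07%) and 32 without the 4 libraries (7.66%). With only the 6 +Fe libraries 0 were called (0.0153%). With only the 6 -Fe libraries 1 was called (0.0204%), and also 1 with the replicate block there (0.0818%). The count stayed within 7 to 10 with a library left out (0.229% to 0.519%). The 2 flanking genes called, beside 0.431% of all genes, were 6 with DESeq2 (2.07%) and 11 without the 4 libraries (7.66%). They were 0 with only the 6 +Fe (0.0153%) or only the 6 -Fe libraries (0.0204%). With the block in the 6 -Fe libraries 1 was called (0.0818%), and with a library left out 0 to 2 (0.229% to 0.519%). In the fit of all groups the replicate block changed no call of the 56, the list or the flanking genes other than that of *AT4G36820*. The 13 genes within 10 kb of another were 6 within 2 kb, and the GA repeat, in 3 promoters, was in 0 when only the bases before the start were searched. The log2 differences of *CSLB03*, *AT4G36820*, *TPS13* and *MAM1* kept their sign in every setting. The cause of these changes was not tested, apart from fewer samples or genes where a setting removes them.

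Depth limits the genes with few WT reads: 3 reads over the 6 WT libraries correspond to 0.0232 CPM. Calls at low counts varied with the tool: in WT *MIR850*, with 7 WT reads, was called for iron by limma on log2(FPKM + 0.1) alone, and *AT1G35625*, with 44, by DESeq2 and without WT +Fe replicate 2.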
